A study of Mus musculus with 21 samples.

Results

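Acute depletion of PDS5B in wild-type mouse embryonic stem cells (mESCs) was measured as 3 WT siPds5b libraries against 3 WT siGLO libraries, chosen by their labels from a series of 21 libraries. All 6 came from the v6.5 line, a male mESC line, with both *Pds5a* and *Pds5b* genes intact, grown on gelatin without feeder cells being named in the labels. Cells received 50 nM of siGLO, a control siRNA, or of siPds5b, an siRNA product against *Pds5b*, and poly-A RNA was collected 48 h later. The other 15 libraries were Pds5b-KO siGLO and Pds5a-KO siGLO, siPds5b, siStag1 and siStag2, with 3 libraries each from 1 CRISPR clone per knockout. They gave the fit its estimate of the spread, and Pds5a-KO siPds5b against Pds5a-KO siGLO, which shares no library with the WT comparison, gave a separate value for the same siRNA. The study calls its RNA-seq replicates of WT and knockout mESCs biological, without saying whether they were separate cultures or transfections, so p-values measure the spread between these libraries.

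Cohesin is a ring of SMC1, SMC3 and RAD21 bound by a STAG subunit, which holds sister chromatids together and extrudes chromatin loops. PDS5A and PDS5B are closely related HEAT-repeat proteins that bind RAD21. They act with WAPL to release cohesin from chromatin and with the ESCO acetyltransferases and sororin to keep it there. The comparison asked how transcript levels differ 48 h after a partial knockdown of *Pds5b* while PDS5A is present. Only RNA was read here, and the study blotted PDS5B protein separately.

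The total count per WT library was between 17434084 and 23989198. All 10 stem cell markers (*Pou5f1*, *Sox2*, *Nanog*, *Klf4*, *Esrrb*, *Zfp42*, *Utf1*, *Lin28a*, *Tdgf1* and *Dppa5a*) had over 2000 counts in every WT library, and their summed level was 148359 to 163177 normalized counts (counts scaled by TMM to a common library size). Of 8 fibroblast markers, *Dcn* and *Lum* had at most 12 counts in any WT library, and the summed level of the 8 was 1169 to 1622 in WT siGLO and 1807 to 2260 in WT siPds5b. Most of that sum came from *Col1a1* and *Col1a2*. *Thy1* and *Pdgfrb* overlapped between groups, with 127, 100 and 97.6 normalized counts of *Thy1* in WT siGLO and 142, 115 and 82.7 in WT siPds5b. Same-numbered WT siGLO and WT siPds5b libraries deviated together from their group means, so the replicate number was taken as a pairing and fits with the number as a block are given beside the main one.

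*Pds5b* was the only gene called in the main fit. It lies on chromosome 5 of mm10 from 150673739 to 150810690 on the plus strand. It had 2354, 2019 and 2285 normalized counts in WT siGLO replicates 1 to 3 and 687, 839 and 802 in WT siPds5b. Every siPds5b library was below every siGLO library. The mean fell from 2219 ± 177 to 776 ± 79.7 (SD, n = 3 each), which left 35% of the transcript, and 29.2%, 41.6% and 35.1% within the 3 pairs. The log2 fold change was -1.52 with a 95% interval of -1.75 to -1.28 (edgeR quasi-likelihood test over 21 libraries, adjusted p = 4.93e-08), and the exact two-sided permutation test gave p = 0.1, the smallest that 3 libraries against 3 allow.

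*Pds5a*, the paralog that remained, had 5256, 4720 and 5200 normalized counts in WT siGLO and 4917, 4674 and 5674 in WT siPds5b. The groups overlapped, and the siPds5b mean was 100.6% of the siGLO mean. Its log2 fold change was 0.01 with an interval of -0.18 to 0.19, which does not reach 1.5-fold in either direction. The exact permutation test gave p = 1.

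**Figure D1:**
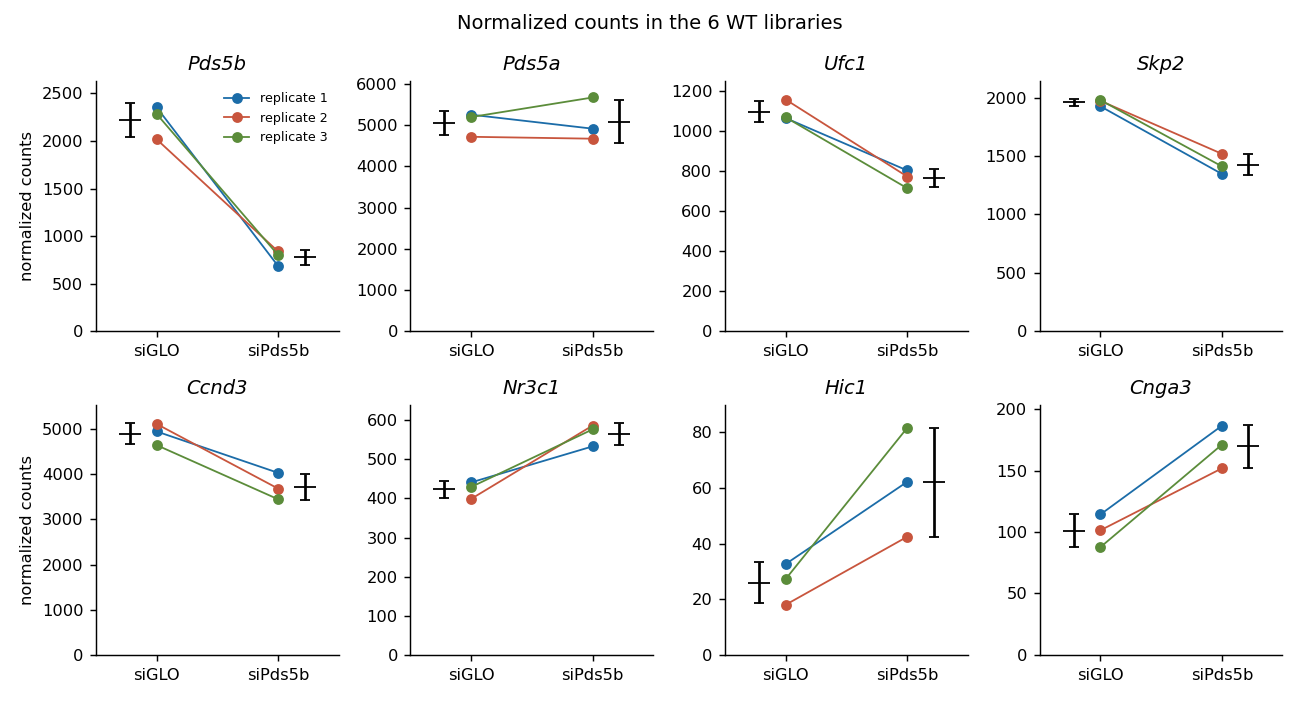
Normalized counts (vertical axis) of *Pds5b*, *Pds5a* and 6 of the most shifted genes in the 3 WT siGLO and 3 WT siPds5b libraries. Coloured lines join libraries with the same replicate number, and the black bars beside them are the mean and SD of 3 libraries. *Pds5b* dropped to between 687 and 839, *Pds5a* overlapped between groups, and the other 6 genes were chosen by a rule that required no overlap.

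Across 14963 tested genes the WT comparison was close to null. Differentially expressed genes (DEGs) were called at an adjusted p under 0.01. There was 1 DEG, 0.00668% of the genes tested. The count of genes at an unadjusted p under 0.05 was 631, or 4.22%, with 312 higher (2.09%) and 319 lower (2.13%). Pds5a-KO siPds5b against Pds5a-KO siGLO gave 1136 DEGs in the same fit, or 7.59% of genes, with 599 higher (4%) and 537 lower (3.59%). The effect of siPds5b differed between the genotypes for 222 genes, or 1.48% (interaction term, adjusted p under 0.01).

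The count of DEGs in WT depended on how the pairing and the spread were modelled. A block for the replicate number, added to the model of 21 libraries, gave 3 DEGs (0.02%), *Pds5b*, *Ufc1* and *Skp2*, all lower. A model of only the 6 WT libraries without the block gave 2 DEGs (0.0144%), *Pds5b* and *Lyz2*. The 6 libraries with the block gave 165 DEGs of 13904 genes tested (1.19%), with 96 higher (0.69%) and 69 lower (0.496%), and 1974 genes (14.2%) at an unadjusted p under 0.05, of which 1006 were higher (7.24%) and 968 lower (6.96%). DESeq2 with the block on the same 6 libraries called 25 genes, all of them among the 165. With the pairs fitted, 6 libraries leave little to estimate the spread from, so the p-values of this fit are uncertain. Of the 165 genes, 151 had a log2 fold change under 1 in size. The median was 0.33 for those higher and -0.36 for those lower.

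Most genes were bounded to small effects. For each gene the 95% interval of its log2 fold change in the main fit gives the largest change in either direction that it allows, without adjustment for the number of genes. Of 14939 genes with an interval, 68.3% stayed within 1.5-fold in both directions and 83.5% within 2-fold. The median gene was bounded to 1.29-fold. The bounds narrowed with expression level. Among 1728 genes with a mean log2 CPM of 7 or more, 98.1% were within 1.5-fold and the median bound was 1.16-fold. Between a mean log2 CPM of 3 and 5 the share was 89.6%, between 1 and 3 it was 38.8%, and under 1 it was 0.253%. In the 6-library fit with the block, 79.8% of genes stayed within 1.5-fold. The intervals of 9 genes lay wholly beyond 1.5-fold: lower *Pds5b*, *Hsd11b2*, *Nsg2* and *Gpnmb*, and higher *Epha8*, *Hic1*, *Scin*, *Pdha2* and *Serpina7*. *Pds5b* was the only DEG of the 9 in the main fit, while *Hsd11b2*, *Nsg2*, *Gpnmb*, *Epha8* and *Hic1* were also DEGs in the 6-library fit with the block. Of the 9, *Hsd11b2*, *Nsg2*, *Gpnmb*, *Pdha2* and *Serpina7* had a mean log2 CPM under 1.

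**Figure D2:**
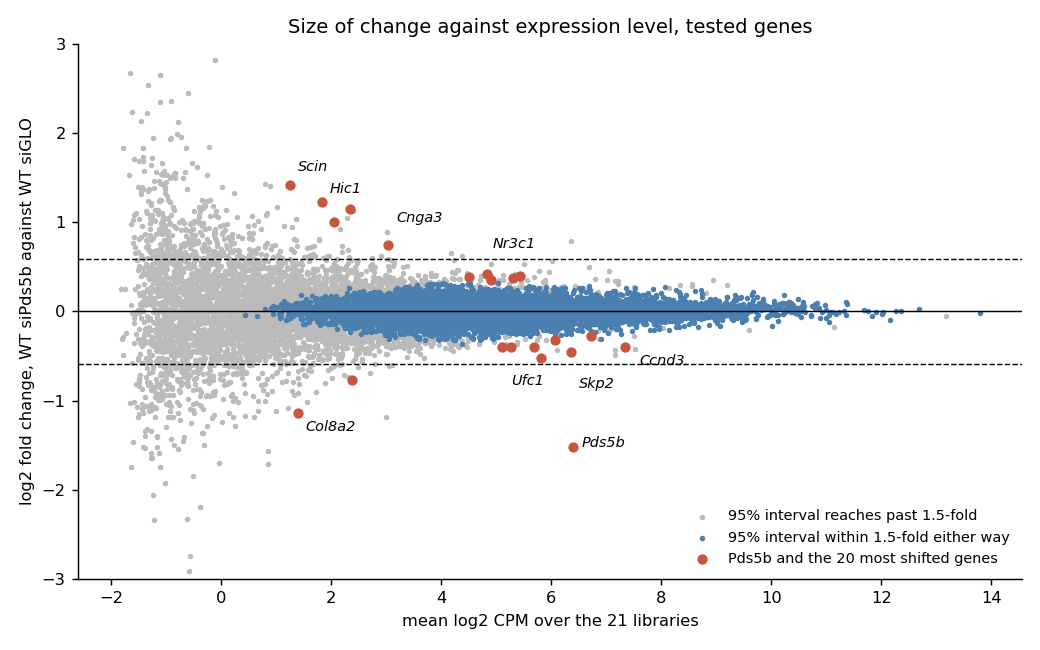
Log2 fold change of each tested gene in WT siPds5b against WT siGLO (vertical axis) against its mean log2 CPM over 21 libraries (horizontal axis). Blue points have a 95% interval within 1.5-fold in both directions (dashed lines) and grey points do not, and red points are *Pds5b* and the 20 most shifted genes. 4 genes lie beyond the vertical axis, and the spread narrows from left to right while *Pds5b* at -1.52 stands apart from genes of its level.

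The transcripts of the cohesin complex were bounded tightly. Of 11 tested subunits of the ring and of the PDS5 and STAG families, *Pds5b* was the only DEG, and 8 were bounded within 1.5-fold. Log2 fold changes were -0.05 for *Smc1a*, -0.01 for *Smc3*, -0.03 for *Rad21*, 0.03 for *Stag1* and 0.06 for *Stag2*, and the widest of their intervals, that of *Stag2*, ran from -0.15 to 0.26. The germline subunits *Smc1b*, *Rec8* and *Stag3* had values of 0.19, 0.18 and -0.05. *Rad21l*, also a germline subunit, was at 1.31 and 3.64 normalized counts in WT siGLO and WT siPds5b, and its interval of -0.52 to 3.64 set no useful bound.

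Of 15 regulators of cohesin and CTCF, none was a DEG, and 14 were bounded within 1.5-fold. These include the loaders *Nipbl* (0.03) and *Mau2* (0.01), the release factor WAPL (*Wapal*, 0.03), the acetyltransferases *Esco1* (-0.02) and *Esco2* (0.06), sororin (*Cdca5*, -0.06) and *Ctcf* (0.01). The exception was *Hdac8*, the deacetylase that removes the SMC3 acetyl marks. *Hdac8* had 131, 134 and 124 normalized counts in WT siGLO and 159, 177 and 160 in WT siPds5b, without overlap, as had 11.2% of all tested genes (5.47% higher and 5.71% lower). Its log2 fold change was 0.35 (interval 0.07 to 0.64, edgeR unadjusted p = 0.018, adjusted p = 1), and it was not a DEG in the 6-library fit with the block either (adjusted p = 0.18).

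The most shifted genes after *Pds5b* were listed by a rule: the 10 higher and the 10 lower genes with the smallest p taken from genes whose groups did not overlap and whose mean log2 CPM was 1 or more. Their WT values are therefore a description. In WT none was a DEG in the main fit, *Ufc1* and *Skp2* were DEGs with the block in 21 libraries, and 18 of the 20 were among the 165, all but *Scin* and *Col8a2*. The sizes reached 1.42 on the log2 scale.

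*Ufc1*, the E2-like enzyme that conjugates the ubiquitin-like protein UFM1, had 1066, 1158 and 1069 normalized counts in WT siGLO and 804, 774 and 715 in WT siPds5b. Every siPds5b library was below every siGLO library, as the rule required. The log2 fold change of *Ufc1* was -0.52 ± 0.08 (SE, edgeR adjusted p = 0.0124, and 0.0047 with the block). *Skp2*, the F-box subunit of the ubiquitin ligase that targets the CDK inhibitor p27, had 1926, 1972 and 1979 in WT siGLO and 1347, 1519 and 1412 in WT siPds5b. Its log2 fold change was -0.46 ± 0.08 (SE, edgeR adjusted p = 0.026, and 0.0088 with the block). *Cdkn1b*, which encodes p27, had a log2 fold change of 0.09, with an interval of -0.15 to 0.34.

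*Ccnd3*, the G1 cyclin D3, had 4946, 5112 and 4643 normalized counts in WT siGLO and 4031, 3682 and 3446 in WT siPds5b. Its log2 fold change was -0.40 ± 0.07 (SE, edgeR adjusted p = 0.026, and 0.0182 with the block). The other D cyclins were *Ccnd1* at -0.00 and *Ccnd2* at 0.15. Among the other lower genes were *Mpzl2*, an adhesion protein of the immunoglobulin superfamily (-0.33), *Foxk1*, a forkhead transcription factor (-0.39), *Kcnh3*, a potassium channel (-0.77), and *Col8a2*, a chain of type VIII collagen (-1.14). *Lpgat1*, an acyltransferase of phospholipid synthesis, and *Wasf3*, an actin regulator of the WAVE family, both had a value of -0.40.

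On the higher side, *Nr3c1*, the glucocorticoid receptor, had 441, 399 and 429 normalized counts in WT siGLO and 533, 586 and 576 in WT siPds5b (log2 fold change 0.42 ± 0.09, SE, edgeR adjusted p = 0.114). *Cnga3*, a cyclic nucleotide-gated channel subunit of cone photoreceptors, had 114, 101 and 87.7 against 186, 152 and 171 (0.75 ± 0.15, adjusted p = 0.099). *Hic1*, a transcriptional repressor known as a p53 target, was low, with 32.7, 18 and 27.3 against 62.1, 42.4 and 81.5 (1.23 ± 0.28, adjusted p = 0.254). The rule required the siPds5b libraries of each of these genes to be above all siGLO libraries. The edgeR adjusted p with the block in 21 libraries was 0.074, 0.0244 and 0.174. *Dmrtb1*, a DM-domain factor of the germline (1.00), *Epha8*, an ephrin receptor (1.15), *Scin*, an actin-severing protein (1.42), *Ptp4a3*, a phosphatase (0.40), *Thyn1* (0.39), *Arl4a*, a small GTPase (0.37), and *Ankrd6*, a Wnt pathway protein (0.36), made up the rest.

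The same siRNA in Pds5a-KO mESCs gave these 20 genes another log2 fold change. The Pds5a-KO libraries still entered the rule, through the shared spread and the mean log2 CPM over all libraries. The shares of all tested genes given here include genes with a mean log2 CPM under 1, which the rule left out. All 10 lower genes also had a log2 fold change below 0 in Pds5a-KO, as did 6 of the 10 higher genes above 0, which makes 16 of 20 with the same sign against 53% of all tested genes. 8 of the 20 were DEGs in the same direction and none in the opposite direction, where 4% of all tested genes were higher and 3.59% lower. They were *Ufc1* (-0.47), *Skp2* (-0.74), *Ccnd3* (-1.0), *Mpzl2* (-0.35) and *Foxk1* (-0.50), and *Nr3c1* (0.76), *Cnga3* (0.60) and *Hic1* (1.56). With the block in 21 libraries 9 of the 20 were DEGs in the same direction. The effect differed between genotypes for *Ccnd3*, by -0.60 (interaction, edgeR adjusted p = 0.000739), and for *Arl4a*, by -0.70 (adjusted p = 0.00402), which had 0.37 in WT and -0.32 in Pds5a-KO. For *Ptp4a3*, *Ankrd6* and *Thyn1* the Pds5a-KO values were -0.03, -0.00 and -0.11. For *Ufc1* the 2 effects differed by 0.05 (adjusted p = 0.887). Both genotypes received the same siRNA product.

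**Figure D3:**
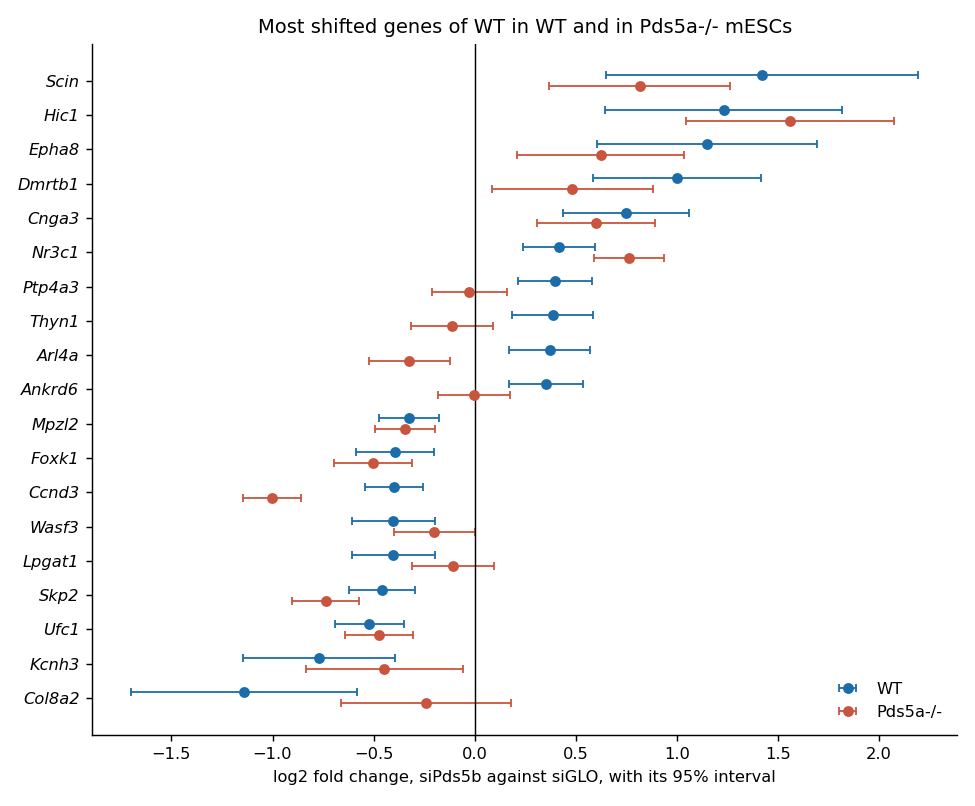
Log2 fold change of siPds5b against siGLO (horizontal axis) with its 95% interval for 19 of the 20 most shifted genes of WT (rows), in WT (blue) and in Pds5a-KO mESCs (red). The 9 lower genes shown are also below 0 in Pds5a-KO, while *Ptp4a3*, *Thyn1*, *Arl4a* and *Ankrd6* are above 0 in WT and not in Pds5a-KO.

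The reverse reading started from the genes changed in Pds5a-KO. The 599 genes higher with siPds5b in Pds5a-KO had a median log2 fold change of 0.94 there and 0.06 in WT, and 66.1% of them were above 0 in WT, against 50.6% of all tested genes. Their mean level was higher with siPds5b in every pair of WT libraries, by 0.11, 0.08 and 0.11 on the log2 scale. The 537 lower genes had a median of -0.57 in Pds5a-KO and -0.03 in WT, and 41.2% were above 0 in WT. The pairs differed by -0.05, -0.03 and -0.06, and the groups overlapped. In WT, *Pds5b* was the only DEG among these 1136 genes, and 89.9% of the lower ones were bounded within 1.5-fold, as were 50.6% of the 595 higher ones with an interval.

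The pathways were read from 36 gene lists with 943 distinct tested genes. Only the cohesin list held a DEG, *Pds5b*. With the block in 21 libraries the list of cyclins, CDKs and inhibitors held another, *Skp2*, and in the 6-library fit with the block 24 lists held at least 1. Of the distinct list genes, 49 were DEGs in that last fit, where 1.19% of all genes were. In such counts the lists were not matched to genes of like level. The median log2 fold change was within 0.1 of 0 for 29 of the 36 lists, where the median of all tested genes was 0.00. The 36 medians ran from -0.14 (neuroectoderm) to 0.43 (fibroblast markers).

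Several lists were bounded without exception. All 48 DNA replication genes, all 43 genes of mitosis and chromosome segregation, all 14 genes of condensin and the SMC5/6 complex and all 32 Mediator genes stayed within 1.5-fold in both directions, against 68.3% of all tested genes. Their medians were -0.02, -0.00, -0.04 and 0.01. The 68.3% includes genes of low level, and the share was 97.2% for all genes between a mean log2 CPM of 5 and 7. The lists were not matched to genes of like level. Among 38 genes of homologous recombination and the Fanconi pathway 37 were within 1.5-fold, with *Brca2*, whose product binds PDS5B, at -0.08 (interval -0.37 to 0.21). In the list of 36 cyclins, CDKs and inhibitors, 30 were within 1.5-fold. *Cdkn1c*, the CDK inhibitor p57, was not, with 472, 353 and 384 normalized counts in WT siGLO and 824, 429 and 530 in WT siPds5b (0.56, interval 0.22 to 0.90). Its groups overlapped, although each siPds5b library exceeded the siGLO library of the same number, and it rose in the 6-library fit with the block (0.54, or 0.38 without pair 1). Without WT siPds5b replicate 1 the main value was 0.24.

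The pluripotency network showed no DEG in the main fit. *Pou5f1*, *Sox2* and *Nanog*, its core factors, had log2 fold changes of 0.09 (interval -0.08 to 0.26), 0.00 (-0.14 to 0.15) and -0.15 (-0.41 to 0.12), each bounded within 1.5-fold. The median of 18 naive pluripotency genes was -0.00 in WT and -1.02 in Pds5a-KO, where 13 of the 18 were DEGs, all lower, against 3.59% of all tested genes. *Klf4* had 3472, 3358 and 3269 normalized counts in WT siGLO and 3065, 2959 and 2649 in WT siPds5b, without overlap, a log2 fold change of -0.22 (interval -0.38 to -0.06) against -1.42 in Pds5a-KO. The difference between the 2 effects was -1.21 (interaction, edgeR adjusted p = 3.99e-07). *Esrrb* likewise had -0.17 in WT and -1.43 in Pds5a-KO. In the 6-library fit with the block, 3 of the 18 naive genes were lower and 1 higher, against 0.496% and 0.69% of all genes. There *Klf4*, *Tfcp2l1* and *Tbx3*, all transcription factors of the naive state, fell (-0.22, -0.28 and -0.25), and *Nr0b1*, a nuclear receptor, rose (0.27). Its main value of 0.29 was 0.07 without WT siPds5b replicate 1. *Nr0b1* differed by -1.80 between Pds5a-KO and WT (interaction, edgeR adjusted p = 5.85e-05).

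Lineage genes were less tightly bounded in the main fit than all tested genes together, which were not matched to them in expression level. Within 1.5-fold were 6 of 17 neuroectoderm genes, 1 of 18 mesoderm and primitive streak genes, 4 of 15 primitive endoderm genes, 3 of 16 trophoblast genes and none of 22 Hox genes or of 16 two-cell-like genes with an interval. In the 6-library fit with the block, which tested fewer of them, the counts were 8 of 10, 7 of 18, 10 of 15, 8 of 15, 2 of 6 and 10 of 16 in the same order, against 79.8% of all genes. Their medians in the main fit lay between -0.14 and 0.12 on the log2 scale. *Pax6* was at -0.12 with an interval of -0.79 to 0.55, *Gata6* at 0.58 (-0.39 to 1.56, called higher in the 6-library fit with the block) and *Sox17* at 0.18 (-0.97 to 1.32). The 17 two-cell-like genes had a median of 0.12 in WT and 2.77 in Pds5a-KO, where all 17 were DEGs, all higher, against 4% of all tested genes.

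**Figure D4:**
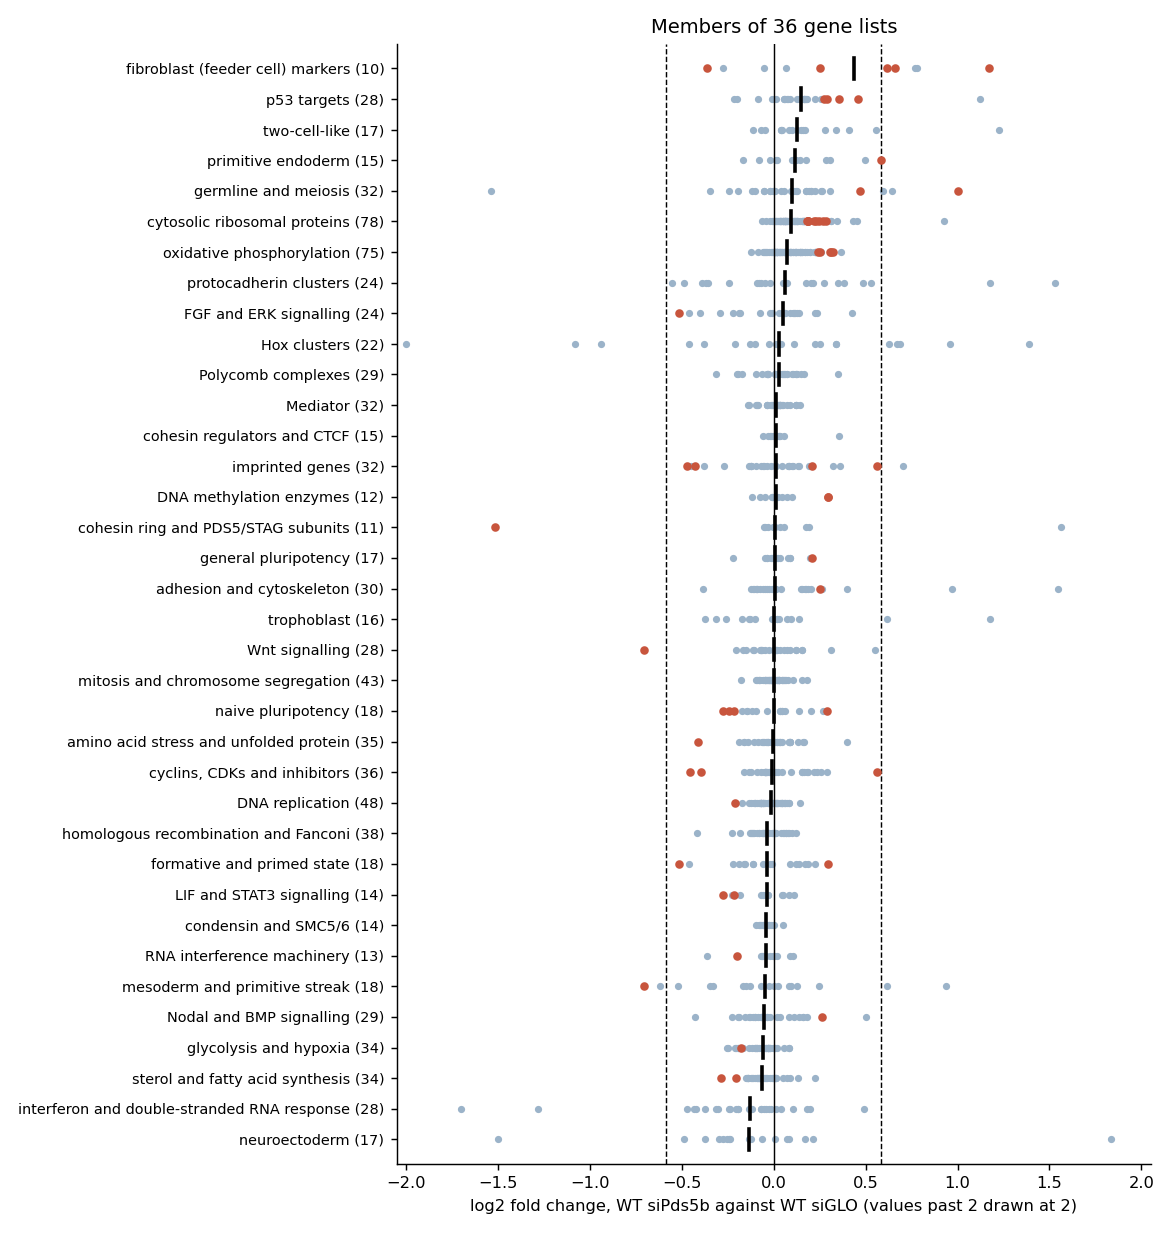
Log2 fold change in WT siPds5b against WT siGLO (horizontal axis) of every tested member of 36 gene lists (rows, with the number tested). Black bars are list medians, red points are the members called in the 6-library fit with the replicate block, and dashed lines mark 1.5-fold. The medians run from -0.14 to 0.43 and 29 of them lie within 0.1 of 0.

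In some lists the members leaned to 1 side. Levels of a list are its mean log2 CPM in a library, centred over the 6 libraries. Of 28 p53 targets 24 were above 0, against 50.6% of all tested genes, with a median of 0.15. The level was -0.19, -0.02 and -0.03 in WT siGLO and 0.01, 0.12 and 0.10 in WT siPds5b, and the pairs differed by 0.20, 0.14 and 0.13. The groups did not overlap, which held for 4 of the 36 lists and, gene by gene, for 11.2% of all tested genes. Without WT siGLO replicate 1 the median was 0.09. No p53 target was a DEG in the main fit, and 3 were higher at an unadjusted p under 0.05, against 2.09% of all tested genes. In the 6-library fit with the block 4 of 28 rose, against 0.69% of all genes: *Plk2*, a stress-responsive kinase (0.45), *Perp*, an apoptosis effector of the plasma membrane (0.35), *Pmaip1*, the BH3-only protein Noxa (0.29), and *Trp53inp1*, a p53-induced nuclear protein (0.27). *Cdkn1a*, which encodes p21, was at 0.26 (-0.32 to 0.83), and *Mdm2*, the E3 ligase for p53, at 0.14 (-0.02 to 0.30). In Pds5a-KO 4 of the 28 were DEGs higher, among them *Pmaip1* and *Trp53inp1* (0.98 and 0.70), and 1 was lower. The shares of all tested genes there were 4% higher and 3.59% lower.

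Ribosomal protein genes were above 0 for 73 of 78 members, with a median of 0.09. Their level was -0.08, 0.03 and -0.14 in WT siGLO and 0.09, 0.06 and 0.05 in WT siPds5b. The groups did not overlap, but the second pair differed by only 0.03, against 0.17 and 0.19 for the others. Oxidative phosphorylation genes were above 0 for 63 of 75, with a median of 0.07 and pair differences of 0.19, 0.01 and 0.07, and their groups overlapped. In the 6-library fit with the block 9 of 77 ribosomal protein genes (such as *Rplp2*, 0.25) and 5 of 75 oxidative phosphorylation genes (such as *Uqcrb*, 0.24) rose and none fell, against 0.69% of all genes higher. That share includes genes of low level, and neither list was matched to genes of like level. In Pds5a-KO the medians of both lists were -0.19. Many ribosomal protein genes have near-identical processed copies, and how reads shared with these were counted is not given, so their values are uncertain.

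Among lists with few called members, two-cell-like genes were above 0 for 14 of 17 and primitive endoderm genes for 12 of 15, while condensin and SMC5/6 genes were above 0 for 2 of 14 and genes of the RNA interference machinery for 3 of 13. The groups overlapped for each of these lists. In the same order, the pairs differed by 0.29, 0.12 and 0.11, by 0.16, 0.10 and 0.15, by -0.110, -0.008 and 0.004, and by -0.14, -0.02 and -0.02. The glycolysis, sterol synthesis and interferon lists also leaned lower. Glycolysis and hypoxia genes were above 0 for 6 of 34 (median -0.06), sterol and fatty acid synthesis genes for 9 of 34 (-0.06) and interferon and double-stranded RNA response genes for 6 of 28 (-0.13). For the interferon genes the pairs differed by -0.16, -0.01 and -0.29 and the groups overlapped. Their median was -0.05 without WT siGLO replicate 3 and -0.26 without WT siPds5b replicate 2. The glycolysis median was -0.01 without WT siGLO replicate 2 and -0.17 without WT siPds5b replicate 2. No member of the glycolysis, sterol synthesis and interferon lists was a DEG in the main fit. In the 6-library fit with the block *Scd1* and *Scd2*, the stearoyl-CoA desaturases, and the glucose transporter *Slc2a3* fell, and no interferon gene was called. These were 2 of 34 sterol genes and 1 of 34 glycolysis genes, against 0.496% of all genes lower. Transfected RNA is known to be able to induce interferon-stimulated genes. Both groups received an siRNA reagent, so the comparison does not measure a response common to both. A response that differs between siGLO and siPds5b is confounded with the knockdown and was not tested. Members of the interferon list ran from -1.70 to 0.49. *Ifit1* and *Oas2* were at -1.28 and -0.42, with intervals of -2.63 to 0.06 and -0.95 to 0.11.

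**Figure D5:**
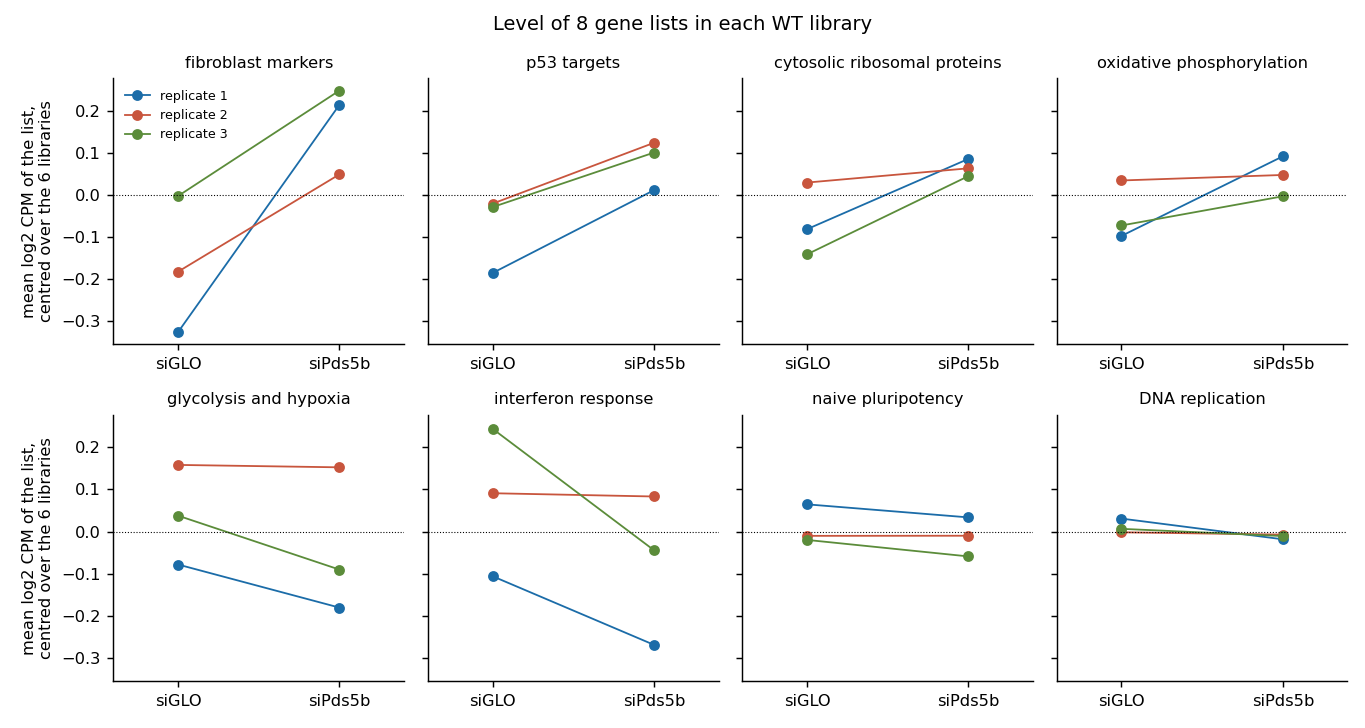
Mean log2 CPM of 8 gene lists in each WT library, centred over the 6 libraries (vertical axis), with lines joining libraries of the same number. The groups do not overlap for fibroblast markers, p53 targets, ribosomal proteins and DNA replication, the only 4 of the 36 lists without overlap. The differences for DNA replication are under 0.05.

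Fibroblast and matrix genes showed the largest median of any list, 0.43 for 10 markers, of which 7 were above 0. The median was 0.26 in the 6-library fit with the block and 0.15 over the members with at least 10 counts in every library. *Col1a1* and *Col1a2*, the chains of type I collagen, had 442, 505 and 662 and 458, 453 and 630 normalized counts in WT siGLO, and 729, 737 and 1008 and 734, 769 and 936 in WT siPds5b. Neither overlapped between groups. Their log2 fold changes of 0.62 and 0.66 had standard errors of 0.54 and 0.60 in the fit of 21 libraries and of 0.07 each in the 6-library fit with the block, where both rose. *Col3a1* (1.21) and the smooth muscle actin *Acta2* (0.26) also rose there, while *Fbln1*, a matrix glycoprotein, fell (-0.36). Of 9 markers tested in that fit, 4 were thus higher and 1 lower, against 0.69% and 0.496% of all genes. *Pdgfrb*, a growth factor receptor of mesenchymal cells, was at -0.28, and *Dcn* and *Lum* had too few counts to be tested. *Postn*, another fibroblast marker, had 19.8, 22.5 and 38.9 normalized counts in WT siGLO and 54.0, 42.4 and 42.5 in WT siPds5b. The part of fibroblast-like cells in these values was not tested. In Pds5a-KO *Col1a1* and *Col1a2* were at 0.05 and 0.17, and none of the 10 markers was a DEG.

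Among the 165 genes of the 6-library fit with the block, *Igfbp3*, a binding protein of insulin-like growth factors, led the higher genes. It had 1003, 1533 and 1407 normalized counts in WT siGLO and 1549, 2794 and 2469 in WT siPds5b, and a log2 fold change of 0.77 ± 0.06 (SE, edgeR adjusted p = 5.58e-16). The same gene had 0.79 ± 0.24 in the main fit (adjusted p = 1) and 0.74 in Pds5a-KO (adjusted p = 0.0539). *Thbs1*, a secreted matrix protein, rose by 0.51, *Malat1*, a nuclear noncoding RNA, by 0.36, and *Gadd45a*, a stress sensor, by 0.53. Without WT siPds5b replicate 1 the main value of *Gadd45a* went from 0.53 to 0.32.

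*Ckb*, the brain-type creatine kinase, had 2979, 4108 and 3452 normalized counts in WT siGLO and 2180, 2837 and 2468 in WT siPds5b, a log2 fold change of -0.49 in the 6-library fit with the block (edgeR adjusted p = 7.38e-11) and -0.88 in Pds5a-KO, where it was a DEG. *Mt1*, a metallothionein, had 2951, 2657 and 2558 against 2001, 1988 and 2043. It fell by 0.44 in the 6-library fit with the block, and the effect in Pds5a-KO, -1.31, was larger by -0.87 (interaction, edgeR adjusted p = 0.00402). Of the 69 lower genes, 55 (79.7%) were also below 0 in Pds5a-KO and 20 were DEGs there, all lower, against 3.59% of all tested genes. *Pds5b*, the target of the siRNA in both genotypes, is counted in the 69, the 55 and the 20. Of the 96 higher genes, 52 (54.2%) were above 0 in Pds5a-KO, 10 were DEGs in the same direction and 3 in the opposite one, where 53% of all tested genes had the same sign in both genotypes.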

How the data were processed

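The authors aligned paired-end poly-A reads to mm10 with STAR and deposited raw counts per gene symbol (23412 symbols), without normalization. The counting tool, annotation and strand setting are not given in the sources used here. Libraries were grouped by their labels. Counts were tested with edgeR 4.0.16 in R 4.3.3: edgeR's filter over the 7 conditions (14963 genes), TMM, 1 robust quasi-likelihood model of 21 libraries with a mean per condition, Benjamini-Hochberg adjustment and a threshold of 0.01. Intervals are the unshrunken log2 fold change plus or minus the t quantile times its SE, and 24 genes without a finite SE have none. Normalized counts refer to a mean effective library size of 19816900. Same-numbered WT libraries correlated at 0.52, 0.39 and 0.34 in their deviations from group means (12176 genes whose mean log2 CPM was 1 or more), and others at most 0.05, so the data, not the labels, give the pairing.

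Exact permutation tests ran over 20 arrangements of 6 libraries. Genes named were *Pds5b* and *Pds5a*, the most shifted 20, genes called by an alternative, cohesin genes, 7 markers and each list's smallest-p and widest-interval members. Other list members, and the neighbours of *Pds5b*, were chosen after their values were seen, and a few genes are not reported here. Members, lists and tests were chosen with earlier results of these data known. Gene positions came from a GENCODE annotation of mm10, which held 99.3% of tested symbols with synonyms. Alternatives tried were DESeq2 1.42.0, other scalings, filters, models and blocks, and leaving out libraries. The scripts were tested on simulated data. Precision is limited by 3 libraries per group with 17434084 to 23989198 counts each.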

Additional observations from a re-analysis of the deposited data

Results flagged for a closer look

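The effect of siPds5b differed between Pds5a-KO and WT (interaction term, edgeR adjusted p under 0.01) for 10 of the 77 genes looked at by name. It did so for 1.48% of all tested genes. Some of the 77 were chosen after their values were seen, so their count is a description. The difference, Pds5a-KO minus WT on the log2 scale, was -1.21 for *Klf4*, -1.80 for *Nr0b1*, -1.13 for *Tdh* (threonine dehydrogenase), -0.75 for *Sox2*, -0.60 for *Ccnd3*, -0.87 for *Mt1* and -0.46 for *Rrm2*, a ribonucleotide reductase subunit. It was 0.94 for *Fry*, 0.69 for *Pmaip1* and -0.70 for *Arl4a*. *Fry* had 431, 420 and 400 normalized counts in WT siGLO and 312, 340 and 319 in WT siPds5b, a log2 fold change of -0.37, and was a DEG in the other direction in Pds5a-KO (0.57). *Sox2* had 0.00 in WT and -0.75 in Pds5a-KO. Groups of 3 libraries were not examined for outlying libraries.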

How the results depend on the processing

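The count of DEGs, 1 in the main fit, was 2 without a filter and in 6 libraries, 4 with DESeq2, 3 with the replicate block and 5 with a block within WT, 165 with the block in 6 libraries and 25 there with DESeq2. It was 4 and 7 at an adjusted p under 0.05 and 0.1, and 16 in DESeq2 at 0.1. The count at an unadjusted p under 0.05 was 1974 with the block in 6 libraries and 1018 with the WT block. The share within 1.5-fold was 73.8% in 6 libraries, 79.8% there with the block, 61.3% without a filter and 80.8% with at least 10 counts in every library. Lists with a DEG numbered 2 with DESeq2 and with either block in 21 libraries, 24 with the block in 6 libraries and 8 there with DESeq2.

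Leaving out 1 library kept the count of DEGs at 1 and the lists with a DEG at 1, with 490 to 795 genes at an unadjusted p under 0.05, log2 fold changes of -1.59 to -1.44 for *Pds5b* and -0.08 to 0.07 for *Pds5a*, 62.7% to 64.4% of genes within 1.5-fold, 26 to 30 lists within 0.1, and medians in WT of 0.05 to 0.09 for the genes higher and -0.06 to -0.00 for those lower in Pds5a-KO. Leaving out 1 pair from the 6-library fit with the block gave 149, 79 and 109 DEGs (without replicate 1, 2 and 3), 22, 16 and 17 lists with one, 1883, 1380 and 1749 genes at an unadjusted p under 0.05, and 75.5%, 73.8% and 74.7% within 1.5-fold. The DEG *Pds5b* stayed called throughout. Its edgeR adjusted p went from 1.61e-15 in the 6-library fit with the block to 2.91e-108, 2.06e-74 and 1.32e-81 without replicate 1, 2 and 3. Fewer libraries thus gave smaller p-values, so the counts with a pair left out do not measure how stable the calls are. The WT block, the DESeq2 fit on 6 libraries and the left-out pairs were added after the data were seen. Why the fits differ was not tested.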

Other observations

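*Lyz2*, which encodes a lysozyme of macrophages, was counted in some libraries and nearly absent from others. Its raw counts were 67, 77 and 57 in WT siGLO and 0, 1 and 0 in WT siPds5b, and it was the second DEG of the 6-library fit without the block (edgeR adjusted p = 0.000317). Across the other conditions the 3 libraries had 67, 68 and 110 in Pds5a-KO siGLO, 1, 136 and 192 in Pds5b-KO siGLO, 47, 0 and 0 in Pds5a-KO siPds5b, 1, 0 and 0 in Pds5a-KO siStag1 and 79, 1 and 0 in Pds5a-KO siStag2. The counts thus separated libraries of the same condition, and no fold change is given.

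By position, the median log2 fold change of the tested genes on each of 20 chromosomes (the autosomes and X) was between -0.01 and 0.02 in WT. Within 1 Mb of *Pds5b*, 8 other genes were tested. Their values ran from -0.43 to 0.26, and *Fry*, with an interval of -0.61 to -0.12, was the one whose interval lay wholly on 1 side of 0, although it was not a DEG.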
